A study of Mus musculus with 8 samples.

Results

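Mouse testis was compared between day 12 (d12) and day 16 (d16) after birth, the interval in which pachytene spermatocytes accumulate, across all genes listed with at least 2 FPKM in either library. Of the 23983 genes with a deposited value, 11609 met this rule. FPKM stands for fragments per kilobase of transcript, scaled to the fragments of the library, so that levels of different genes are given per length. Both libraries were made from total RNA of a piece of testis from C57BL/6J mice as strand-specific, paired-end libraries, 1 for d12 and 1 for d16, and the number of animals behind each is not given in the sources used here. Since each stage is a single library, the variation from animal to animal is not known, and the stages were not tested against each other. The change of a gene is log2((d16 FPKM + 1)/(d12 FPKM + 1)), which understates the change of genes near 0. A gene is said to have risen at a log2 change of at least 1 and to have fallen at a log2 change of at most -1. For genes that did neither, only the values are given.

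The first wave of spermatogenesis begins soon after birth and proceeds in step along the seminiferous tubules. Spermatogonia divide and enter meiosis, homologous chromosomes pair and recombine, and spermatocytes then spend days in pachytene, the long stage of meiotic prophase in which chromosomes are fully synapsed, before they divide into haploid spermatids. Pachytene spermatocytes transcribe many genes of the later sperm, while the unpaired X and Y chromosomes are silenced in a separate domain, the sex body. A tubule also holds Sertoli cells, which nurse the germ cells, and lies among Leydig cells, which make androgens, and myoid cells, vessels and macrophages.

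The depth of both libraries was alike. From the steps in the deposited values, 1 fragment on a transcript of 1 kb was worth 0.0799 FPKM at d12 and 0.080 at d16, so that 2 FPKM stands for 25 fragments at either stage, and a count of 0 allows a level of up to 0.240 FPKM (3 fragments). The genes of known transcript length held 7643593 fragments at d12 and 8065728 at d16. Ratios are given with exact 95% Clopper-Pearson intervals where fragments could be recovered. These cover counting error only and say nothing of the spread between animals.

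From d12 to d16, 1153 genes rose, which is 9.93% of the genes tested, and 139 fell, which is 1.20%. The other 10317 genes had neither call. Because 1 FPKM is added, a gene of low level can change by over 2-fold in FPKM without a call, and with a pseudocount of 0.1 in its place 1322 genes rose and 348 fell. The median log2 change over all genes tested was -0.03, with quartiles of -0.32 and 0.36, and 6069 genes (52.3%) were lower at d16 by any amount. Of the 9145 genes with recovered fragments, the counting interval of the ratio lay above 1 for 3031 and below 1 for 3281 (35.9%). Rises reached further than falls. On the same scale, a change of at least 4-fold was found for 505 genes that rose and 6 that fell, and a change of at least 16-fold for 75 that rose and 1 that fell. The number of genes called fallen depends on the scaling of the libraries. It was 207 when the FPKM sums of both libraries were made equal, which lowers the median log2 change of all genes by 0.11, and 238 when the upper quartiles were made equal, while 1033 and 1010 genes rose. Bulk RNA of a tissue piece cannot tell fewer cells of a type from less RNA per cell, and whether the piece taken affects the levels of somatic, blood or fat cell genes was not tested.

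**Figure D1:**
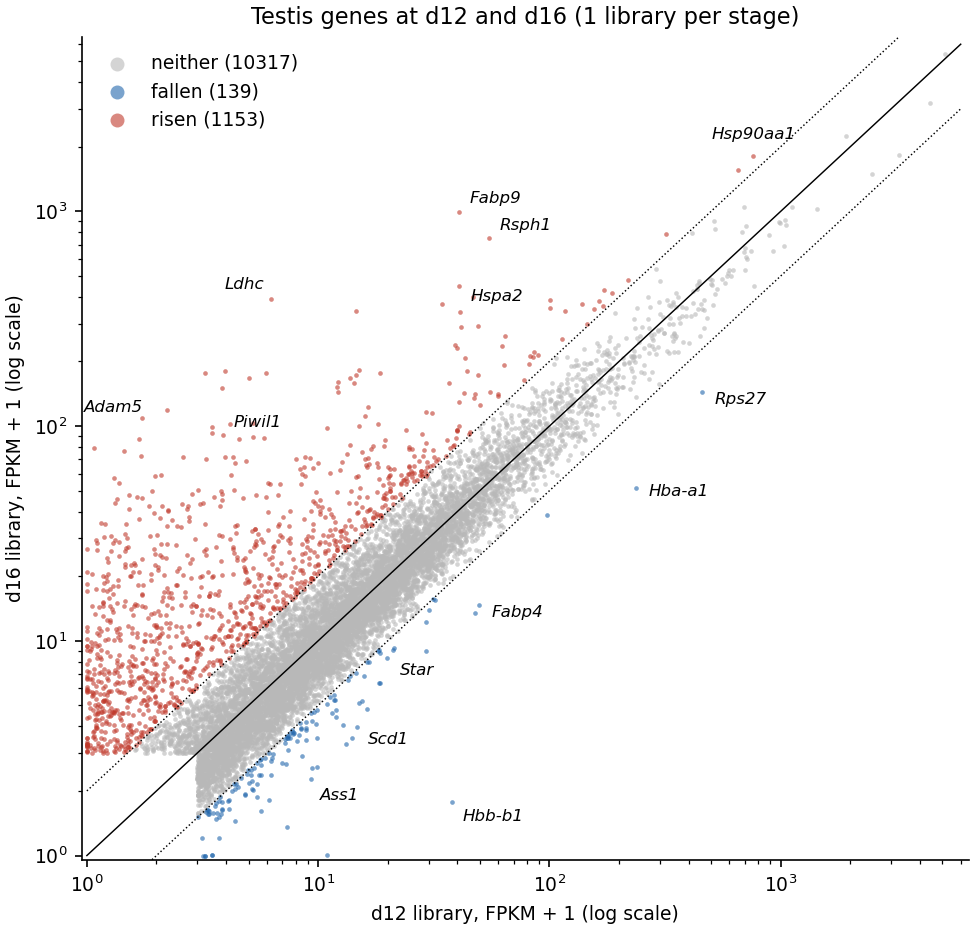
FPKM + 1 of each of the 11609 genes in the d12 library (x axis) and the d16 library (y axis), both on log scales, with genes that rose in red, genes that fell in blue and the rest in grey. The solid line marks equal values and the dotted lines a 2-fold difference in FPKM + 1. The red points spread far above the upper line, up to Fabp9 and Rsph1, while the blue points stay close to the lower line except for the globin genes Hba-a1 and Hbb-b1 and a few others.

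The rule on expression cuts through a dense part of the range. Just inside it were Rnft2 with 2.00 FPKM at d12 and 1.45 at d16, and Relb with 2.00 and 1.35. Just outside were Dnajc30 with 1.79 and 2.00 FPKM and Marveld1 with 2.00 and 1.69, both slightly under 2 before rounding. Among the 39 genes tested whose transcript is under 200 bases, 5 rose and 9 fell.

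The largest rise of a protein-coding gene was that of Speer1-ps1, from 0.0721 FPKM at d12 to 78.4 at d16. This member of a repeated gene family on chromosome 5 shares 88.6% of its 50-base stretches with other genes, so its value is uncertain. Adam5, a sperm surface protein of the ADAM family encoded on chromosome 8, rose from 0.735 to 108 FPKM. Ldhc, which encodes the lactate dehydrogenase of germ cells, had 89 fragments at d12 and 6569 at d16, a ratio of 74.3 (60.0 to 92.2). At d24 Ldhc and Adam5 were higher still, at 2267 and 745 FPKM.

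The other 12 of the 15 largest rises covered sperm surface proteins, a centrin, metabolic enzymes and proteins of unknown function. Adam32 rose from 0.71 to 71.2 FPKM and Pgam2, a phosphoglycerate mutase known from muscle, from 0.441 to 75.6, a ratio of 172 (73.2 to 529.6) on only 5 fragments at d12. Spink2, a protease inhibitor of the acrosome, rose from 0.682 to 86 FPKM, and Crisp2, a cysteine-rich protein of the acrosome and tail, from 2.84 to 150.0. Cetn1, a centrin of the basal body of the tail, rose from 2.96 to 180.1 FPKM. In each of these the d12 level was a few FPKM at most. Tcp10a and Tcp10b, both on chromosome 17, rose from 0.38 to 53.4 and from 0.348 to 44.9 FPKM. Since 55.8% of the stretches of Tcp10a are found in Tcp10b, fragments may have been divided between them. Hrasls5, a phospholipid acyltransferase, rose from 1.22 to 118 FPKM, and Spata4 from 4.0 to 166. Cmtm2a, of a chemokine-like family (0.516 and 46.7 FPKM at d12 and d16), 4922502D21Rik (2.24 and 176) and 1700003M02Rik (0.326 and 42.9) complete the set.

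Markers of pachytene spermatocytes rose nearly as a whole. Of 18 such genes, all of them tested, 16 rose and none fell, with a median log2 change of 2.98, beside -0.03 over all genes. Piwil1, the Piwi protein that binds pachytene piRNAs, rose from 2.9 to 90.0 FPKM, a ratio of 31.1 (26.3 to 37). Spata16, needed for the acrosome, rose from 0.974 to 57.5 FPKM, and the linker histone Hist1h1t from 45.6 to 398. The summed level of the 18 genes was 209 FPKM at d12 and 1894 at d16. Genes of the end of pachytene and of the first meiotic division were called as well but stayed low at d16. The cyclin Ccna1 went from 0.204 to 2.09 FPKM and the kinase Aurkc from 1.38 to 4.06, while they reached 52.7 and 21.1 at d24. The 2 genes that did not pass were Calr3 with 2.61 and 3.02 FPKM and Slc25a31 with 19.1 and 27.

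Markers of the preceding stages were less shifted. Of 15 genes of leptotene and zygotene spermatocytes, 5 rose and none fell, with a median log2 change of 0.94. The 3 largest rises were those of Psmc3ip (30.0 and 114 FPKM at d12 and d16), Hormad1 (115 and 344) and Spata22 (9.03 and 21.7), of which Spata22 shares 79.7% of its stretches with another annotated gene and is uncertain. The lowest log2 changes were those of Mei1 (-0.61), Dmc1 (-0.44) and Prdm9 (-0.34), which act at the start of recombination.

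Differentiating spermatogonia were represented by 13 genes, 11 of them lower at d16, with a median log2 change of -0.61. None was called fallen. Stra8, the gatekeeper of meiosis, had 86.4 FPKM at d12 and 49.2 at d16, Sohlh1 10.4 and 4.91, and Kit 18.4 and 11.7. The member that rose was Dmrtb1, from 7.07 to 17.6 FPKM. Of 19 markers of undifferentiated spermatogonia, only 8 reached 2 FPKM, and their median was -0.45. Zbtb16, a transcription factor of stem cells, had 10.8 and 6.23 FPKM and Lin28a 10.6 and 7.01. Id4 rose instead, from 4.91 to 24.2 FPKM, and its level at d24 was 34.3. The receptor genes Gfra1 and Ret stayed under 2 FPKM, with 1.2 and 0.814 for Gfra1.

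Haploid markers were almost absent from either library. Of 13 round spermatid genes, 2 were tested. Acr, the acrosomal protease, rose from 0.348 to 10.0 FPKM, and Spaca1, an acrosomal membrane protein, had 2.03 and 3.53. Of 13 elongating spermatid genes, 3 were tested and all 3 were lower at d16. The transition protein Tnp1 fell from 2.81 FPKM (15 fragments) to 0.563 (3 fragments), while the protamines had 3.39 and 1.2 FPKM (Prm1) and 4.57 and 2.35 (Prm2). In adult testis Tnp1 reached 4147 FPKM. Of those not tested, Acrv1, an acrosomal protein, had 0.0729 FPKM at d12 and was listed at 0 at d16, and the transition protein Tnp2 had 1.74 and 0.145. These low values rest on few fragments, and whether they come from cells of these testes was not tested.

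The genes that rose by d16 had still higher medians in the later libraries. Their median level went from 2.00 FPKM to 14.3 between d12 and d16, and it was 60.9 in the d24 library and 70.2 in the adult one. Of the 1153 genes, 577 were under 2 FPKM at d12 and so entered the genes tested through their d16 level alone. In lists with many members left out as too low, the share of risen genes and the median are in part set by this rule. The share of the 1153 genes in the FPKM sum went from 3.79% to 14.1%, with 32.2% in the d24 library and 30.9% in the adult library. The genes that fell went from a median of 6.36 FPKM to 1.90, and later medians were 1.26 (d24) and 1.03 (adult). Genes with neither call kept medians between 9.59 and 10.2 FPKM in the 4 libraries. The rule chose the first 2 levels, so only the later ones are independent of it. By the same rule, the step from d16 to d24, which shares the d16 library, held 3346 genes that rose (26.6% of 12566 tested) and 559 that fell (4.45%).

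**Figure D2:**
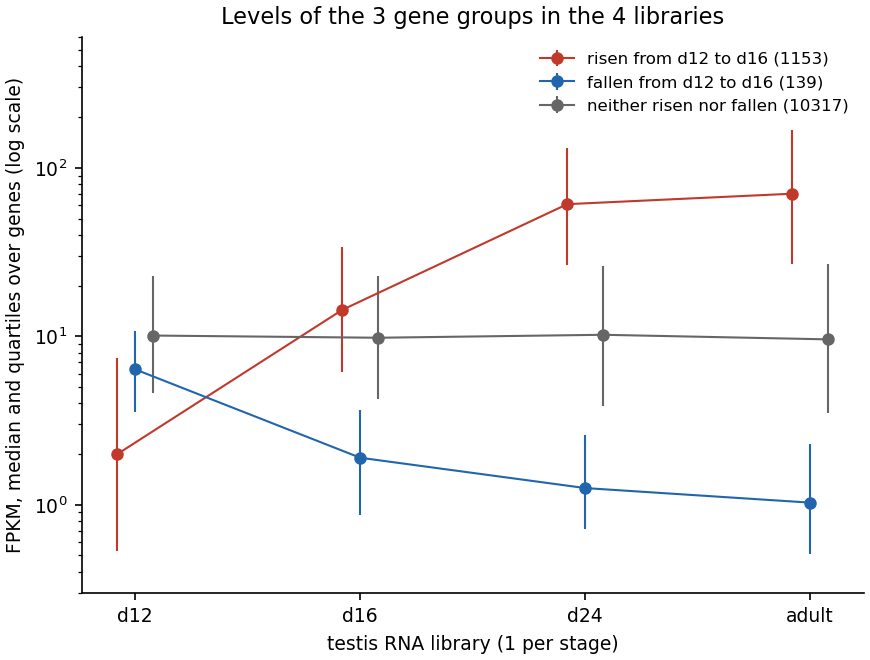
Median FPKM, on a log scale, of the genes that rose from d12 to d16 (red), fell (blue) or did neither (grey) in the 4 testis RNA libraries, with bars from the lower to the upper quartile over genes. The red median goes from 2.00 to 14.3 and then 60.9, the blue one from 6.36 to 1.90 and 1.26, and the grey one stays near 10.2.

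Energy metabolism was split between the enzymes particular to germ cells and those of the body at large. Sperm and their precursors carry their own forms of many glycolytic and respiratory proteins. Of 28 such germ cell isozymes 22 were tested, of which 17 rose and none fell, with a median log2 change of 2.74. A member can enter the genes tested through a high d16 level alone, as Pgam2 did. The share risen and the median are thus in part set by the rule, and 1 isozyme left out was listed at 0 in both libraries. Next to Ldhc and Pgam2 the largest rise was that of Ldhal6b, a lactate dehydrogenase-like retrogene, from 2.49 to 97.8 FPKM. Glucose transporter Slc2a3 (3.53 and 85.6 FPKM) and the subunits of cytochrome oxidase Cox6b2 (39.7 and 449) and Cox8c (2.18 and 42.9) rose too. Of these, Slc2a3 and Cox8c were chosen after their values were seen. The summed level of the list went from 259 to 1928 FPKM.

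The 25 somatic isozymes tested gave a contrasting picture, with 22 lower at d16, a median log2 change of -0.32 and no member called fallen. Ldhb, the heart form of lactate dehydrogenase and the highest of the list, had 182 FPKM at d12 and 128 at d16. Gapdh had 68.9 and 42.6, and the X-linked pyruvate dehydrogenase subunit Pdha1 21.3 and 12.8. The one member that rose was Ldha, the muscle form, from 18.3 to 80.1 FPKM. Ldha lies next to Ldhc on chromosome 7 (GRCm38, chr7:46842274-46855627 beside chr7:46861263-46878147).

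All tested genes of the axoneme, the microtubule core of the sperm tail, and of its assembly were higher at d16. Of 71 listed genes 63 have a deposited value and 53 were tested, of which 48 rose, none fell and none was lower at d16. A member can enter the genes tested through a high d16 level alone, as Zmynd10 and Spag17 did. Dynein genes left out as too low went both ways. Dnah11 had 0.278 and 0.182 FPKM and Dnah5 0.107 and 0.0717, while Dnah10 had 0.228 and 1.29 and Dnah9 0.157 and 0.192. The median log2 change of the genes tested was 2.49 and the summed level of the list was 215 FPKM at d12 and 2044 at d16. 1700003M02Rik, named above, showed the largest rise. Zmynd10, which helps to assemble dynein arms, rose from 0.957 to 38.4 FPKM, and Spag17, of the central pair of microtubules, from 0.477 to 26.2, a ratio of 54.8 (41.1 to 74.8). Rsph1, a radial spoke protein, was the highest of the list and rose from 53.9 to 747 FPKM. The 5 tested members without a call were the assembly factors Heatr2, with 5.38 and 5.69 FPKM, and Dnaaf2, with 6.38 and 13.6, the dynein light chains Dnal1 (0.71 in log2) and Dnal4 (0.88), and Gas8, whose log2 change of 1.00 after rounding lay just short of 1.

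Transport along the growing tail followed at a smaller scale. Of 37 genes of intraflagellar transport and the BBSome, a coat complex of ciliary membrane traffic, 19 rose and none fell, with a median of 1.06. The largest rises were those of Ttc30a1 (1.84 and 12.6 FPKM at d12 and d16), which shares 31.8% of its stretches with its copies, Ift140 (9.37 and 40.8) and Wdr35 (15.3 and 63.5). Bbs12, at 2.92 and 2.07 FPKM, was the one member that was lower at d16. Of 35 kinesins, the microtubule motors, 3 rose and none fell, with a median of 0.00 whose sign depends on centring, and Kif9 as the largest rise, from 3.45 to 22.8 FPKM.

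Outer parts of the tail and the tubulins behaved unevenly. Of 19 genes of the fibrous sheath and the outer dense fibres, most of which are known from spermatids, 7 were tested and 5 of them rose. Odf4 rose from 1.08 to 36.3 FPKM, Ropn1l from 4.83 to 87.3, and Spa17, the highest of the list, from 40.6 to 287. Among 15 tubulins the germ cell forms Tuba3a (137 and 369 FPKM) and Tuba3b (99.98 and 385), which share reads, rose, while Tubb2a fell from 4.13 to 1.5. The median of the tubulins was -0.62.

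**Figure D3:**
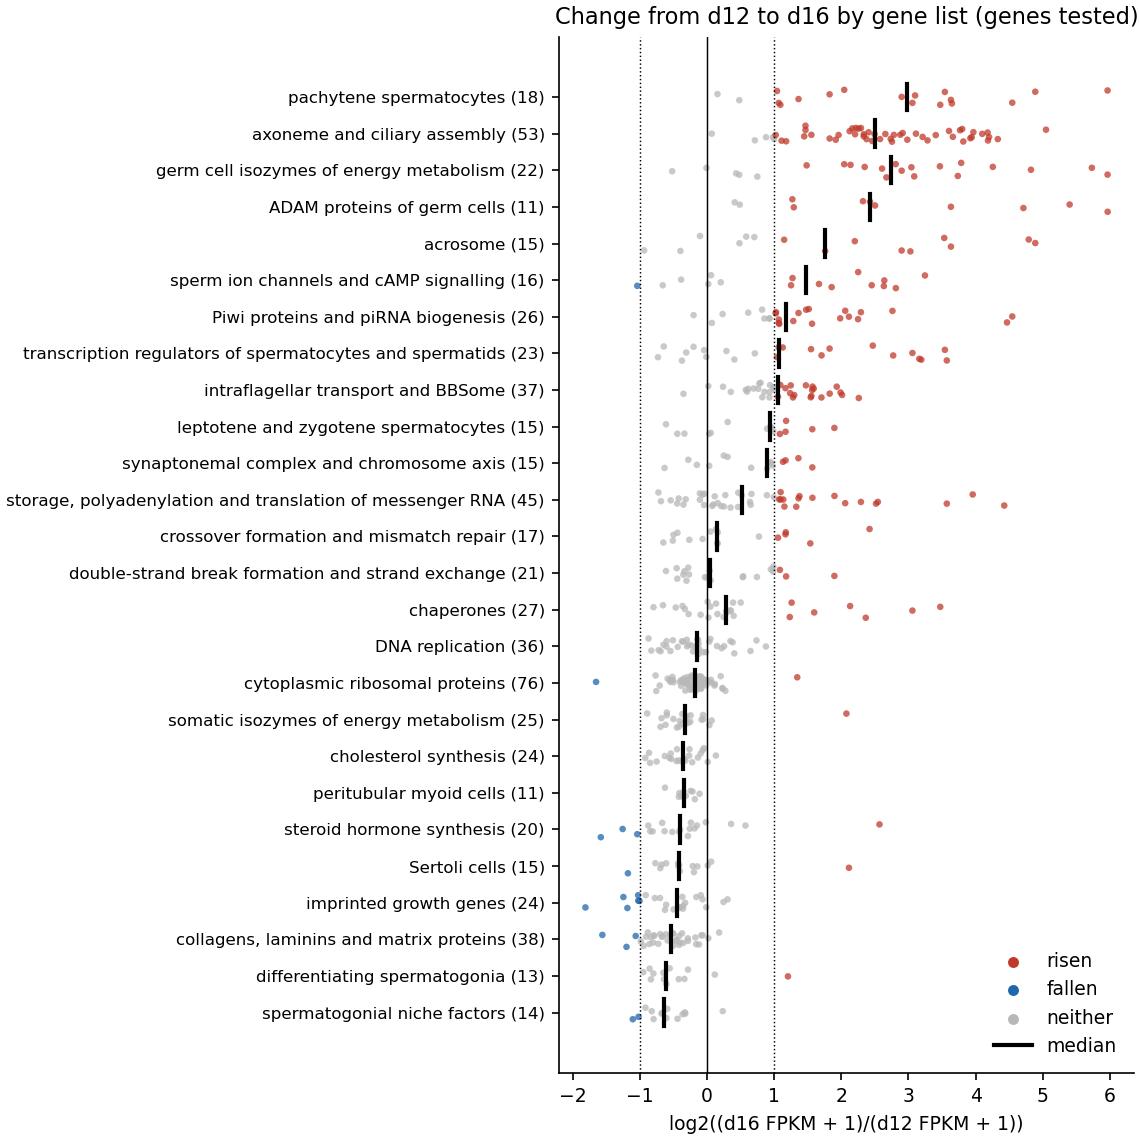
Log2 change from d12 to d16 of every tested gene in 26 of the lists, with the number of genes tested in parentheses, the median as a black bar and dotted lines at the limits of a call. Points are red where a gene rose, blue where it fell and grey otherwise. Pachytene markers (median 2.98), germ cell isozymes (2.74) and the axoneme (2.49) sit to the right, and Sertoli cell markers (-0.42), differentiating spermatogonia (-0.61) and spermatogonial niche factors (-0.64) sit left of 0.

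Proteins of the acrosome, the secretory vesicle of the sperm head, were tested for 15 of 34 listed genes. Of these, 9 rose and none was called fallen, with a median of 1.76, and 3 were lower at d16, each with a counting interval of the ratio below 1. Besides Spata16, Dkkl1 rose from 1.59 to 70.8 FPKM and Zpbp2, a binding protein for the egg coat, from 0.684 to 19.9. Of the 6 members without a call, Spaca6, a protein of sperm and egg fusion, was the lowest at a log2 change of -0.94, with 2.03 and 0.581 FPKM.

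Of 23 ADAM genes and their partners, 11 were tested and 9 rose, with a median of 2.43. After Adam5 and Adam32 the largest rise was that of Adam2, a subunit of fertilin, from 0.908 to 49 FPKM. These 3 entered the genes tested through their d16 level alone, so the median and the share risen are in part set by the rule. Members left out as too low went both ways, as Adam25 (0.152 and 0.0610 FPKM) and Adam20 (0.247 and 0.463), and 3 were listed at 0 in both libraries. Of 28 listed genes of sperm ion channels and the cAMP pathway, 27 have a deposited value and 16 were tested, of which 10 rose. Catsperb and Slc9c1 entered the genes tested through their d16 level alone, so this share, too, is in part set by the rule. Catsperb, a subunit of the sperm calcium channel, rose from 0.043 FPKM (2 fragments) to 8.89 (413), the sodium proton exchanger Slc9c1 from 0.0206 (1 fragment) to 6.17 (299), and Slc9b1 from 4.2 to 31.4. Prkar2a, a regulatory subunit of protein kinase A, fell from 15.3 to 6.93 FPKM and stood at 102 in adult testis. Of 25 serine proteases and testis serine kinases 5 were tested and 4 rose, led by Prss45 (0.389 and 9.09 FPKM).

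The machinery of meiosis itself was already present at d12. The 15 genes of the synaptonemal complex and chromosome axis summed to 1411 FPKM at d12 and 2651 at d16, with 4 risen, none fallen and a median of 0.89. Hormad1, an axis protein removed on synapsis, rose from 115 to 344 FPKM. The central element protein Syce1 rose from 81.6 to 211 FPKM and the axis protein Sycp2 from 112 to 254. Sycp3, the highest member, had 414 and 795 FPKM, a ratio of 1.92 (1.86 to 1.98), which on the log2 scale is 0.94 and short of the limit.

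Most recombination genes had no call, as was so for most genes tested, of which 9.93% rose. Of 21 genes that make double-strand breaks and exchange strands, 3 rose, and the median of 0.04 changes sign with the scaling of the libraries. Besides Psmc3ip and Spata22, Mnd1, the partner of Psmc3ip, rose from 7.67 to 17.4 FPKM. Of 17 crossover and mismatch repair genes, 5 rose, with a median of 0.15. Cntd1, which limits crossover sites, rose from 6.06 to 36.8 FPKM, a ratio of 6.07 (5.15 to 7.19), Msh4 from 4.52 to 15 and Prr19 from 1.42 to 4.45. Tex15 was the highest member and had 109 and 76.9 FPKM.

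Genes of DNA damage signalling at the sex body mark and silence the unpaired sex chromosomes. Of 26 such genes 2 rose, beside 9.93% of all genes tested, with a median of 0.22. At d16, 19 were higher and 7 lower by any amount, beside 52.3% lower over all genes tested. The counting interval lay above 1 for 12 and below 1 for 7 of 21 genes. Mdc1, which spreads the damage signal along the chromosomes, rose from 28.4 to 67.3 FPKM, a ratio of 2.37 (2.26 to 2.48). None of 36 DNA replication genes rose or fell. Their median was -0.16, and Pcna, the highest, had 87.8 and 117 FPKM. Of 31 cyclins and kinases of cell division, 5 rose, led by Nek2 (19.4 and 62 FPKM) and Cks2 (20.3 and 61.9), and Ccna1 as described.

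The piRNA pathway, which makes small RNAs that guard the germline, rose broadly. Of 26 genes tested, 18 rose, none fell and 1 was lower at d16, with a median of 1.18. After Piwil1 the largest rises were those of the tudor proteins Tdrd6, from 0.328 to 28.4 FPKM, a ratio of 86.6 (60.6 to 132), and Tdrd5, from 8.95 to 66.4. The helicase Ddx4, the highest of the list, rose from 84.7 to 219 FPKM. Btbd18 had 9.98 and 8.54 FPKM.

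Genes that store, polyadenylate and translate messenger RNA, steps by which germ cells delay the use of transcripts, included 17 risen of 45, none fallen, with a median of 0.51. Pabpc2 and Pabpc6, poly(A) binding proteins of germ cells, rose from 0.463 to 30.5 and from 1.74 to 41.6 FPKM. Ybx2, a germ cell protein that binds stored messages, rose from 11.1 to 143 FPKM. The highest of the list was Ybx1, with 169 and 362 FPKM.

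Of 35 listed regulators of transcription in spermatocytes and spermatids, 34 have a deposited value and 23 were tested. Of these, 13 rose, none fell and 7 were lower at d16, with a median of 1.07. A member can enter the genes tested through a high d16 level alone, as Gtf2a1l did, so the share risen and the median are in part set by the rule. Besides Ybx2, Nkapl rose from 3.35 to 49.6 FPKM, and Gtf2a1l, the germ cell form of a general transcription factor, from 0.592 to 13.5. Taf7l, an X-linked subunit of the same machinery and the highest member, had 277 and 177 FPKM. Mybl1, also called A-MYB, is the known activator of pachytene genes and rose from 17.4 to 37.6 FPKM, a ratio of 2.16 (2.0 to 2.32). Rfx2, which acts on genes of ciliated cells and spermatids, and Crem, which acts on spermatid genes, were chosen after their values were seen. They rose from 1.02 to 12.8 and from 5.61 to 20.5 FPKM.

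The promoters of 4 genes with large rises are shown because they hold CNGTTA, the core sequence that MYB proteins bind. They are the protein-coding genes with the largest rise whose promoter holds this motif, with a chromosome left out as given in the methods. The sequences are from RefSeq on GRCm38.p6, run 5′ to 3′ on the strand of the gene from 250 bases before to 50 after its start, and the motif is in capitals on either strand.
Speer1-ps1, chr5:11340158-11340457 (+): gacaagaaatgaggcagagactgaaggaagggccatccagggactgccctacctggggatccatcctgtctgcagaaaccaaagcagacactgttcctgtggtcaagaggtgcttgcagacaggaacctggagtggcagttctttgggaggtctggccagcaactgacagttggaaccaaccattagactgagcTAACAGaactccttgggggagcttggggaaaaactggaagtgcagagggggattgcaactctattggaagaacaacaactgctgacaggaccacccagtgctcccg
Ldhc, chr7:46861013-46861312 (+): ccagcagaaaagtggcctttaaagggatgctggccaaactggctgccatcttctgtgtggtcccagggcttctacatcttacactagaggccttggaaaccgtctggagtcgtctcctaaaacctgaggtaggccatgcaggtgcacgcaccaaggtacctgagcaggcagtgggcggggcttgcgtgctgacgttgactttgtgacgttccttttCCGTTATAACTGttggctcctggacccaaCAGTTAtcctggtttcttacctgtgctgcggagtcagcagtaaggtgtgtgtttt
4922502D21Rik, chr6:129331732-129332031 (-): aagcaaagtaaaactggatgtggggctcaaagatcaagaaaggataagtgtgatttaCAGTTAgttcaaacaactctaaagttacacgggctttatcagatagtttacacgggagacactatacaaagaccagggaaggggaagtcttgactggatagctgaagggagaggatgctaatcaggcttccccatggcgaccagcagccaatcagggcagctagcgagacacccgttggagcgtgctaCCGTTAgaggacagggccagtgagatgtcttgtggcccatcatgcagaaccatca
Pgam2, chr11:5803747-5804046 (-): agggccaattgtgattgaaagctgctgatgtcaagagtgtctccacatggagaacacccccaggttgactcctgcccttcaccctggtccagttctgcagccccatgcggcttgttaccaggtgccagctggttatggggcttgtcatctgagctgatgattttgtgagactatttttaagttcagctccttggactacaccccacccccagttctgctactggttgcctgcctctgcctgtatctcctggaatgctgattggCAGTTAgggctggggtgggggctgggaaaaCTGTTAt
In Ldhc, 3 matches begin 34, 28 and 5 bases before the start. In 4922502D21Rik they begin 193 and 5 bases before it, in Speer1-ps1 56 bases before it, and in Pgam2 14 and 44 bases into the transcript. A match is a string of letters and does not show that a protein binds there.

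Across protein-coding genes, CNGTTA was found in 32.1% of 836 promoters of genes that rose, in 36.8% of 353 promoters of genes that rose at least 4-fold, and in 19.4% of 9036 promoters of all genes tested. GTTGCC, a core of the site bound by RFX proteins, was found in 24%, 26.6% and 13.1%. Over all 27025 promoters of the table the shares were 23.2% and 12.7%. In 398 promoters of X-linked genes tested they were 27.1% and 12.3%, although only 1.06% of X-linked genes rose. Both strands were searched, and neither string contains the other. Promoters of risen genes were less rich in G and C, with a median of 57.7% against 61.0% for all genes tested. The shares were therefore also taken within ranges of GC content. Below 55% GC the MYB core was in 40.3% of risen and 29.1% of all promoters, from 55% to 65% in 29.3% and 20.4%, and above that in 23.7% and 10.9%. The RFX core was in 23.4% and 13.6%, 27.5% and 13.9%, and 19.1% and 11.9% of promoters in the same ranges.

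The shares of 4 other strings in risen and in all promoters tested were as follows. TGACGTCA, the element bound by CREB and CREM, was in 2.99% of risen and 3.50% of all promoters, TTTGGCGC, an E2F site, in 0.837% and 1.07%, CAAGGTCA, an NR5A1 site, in 1.56% and 1.01%, and ATTGG, the core bound by NFY, in 42.6% and 40.2%. The table held promoters for 81.9% of protein-coding genes that rose and 81.5% of those tested, but for 70.8% of those that fell, so the comparison is void for the latter.

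Chromatin proteins and chaperones rose in selected members. Of 21 testis histones and spermatid chromatin proteins tested, 3 rose and 1, Tnp1, fell, with a median of 0.25. Hist1h1t, Brdt, a bromodomain protein of spermatocytes (22.9 and 95.2 FPKM), and the testis histone Hist1h2ba (318 and 779.8) were those that rose. Hist1h2aa, with 1909.5 and 2249 FPKM, was among the highest transcripts of either library. Of 57 genes of the histone clusters, 3 rose, 1 fell and 47 were lower at d16, with a median of -0.44. Hist2h4 fell from 7.9 to 2.92 FPKM and Hist2h2be rose from 1.95 to 5.23. Genes within the clusters are often alike in sequence, so single values are uncertain. Hist1h2ba shares 38.2% of its stretches with other genes.

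Of 27 chaperones 7 rose, none fell, and the median was 0.28. Clgn, a calnexin of germ cells, rose from 13.3 to 158 FPKM, Hspa2, the testis heat shock protein, from 39.9 to 339.9 with a ratio of 8.52 (8.03 to 9.03), and Dnajb3 from 1.88 to 13.8. Hsp90aa1, at 757 and 1813 FPKM, had the highest d16 level of any gene that rose, and shares 47.5% of its stretches with other annotated genes. Its widely used relative Hsp90ab1, named after its values were seen, had 1049 and 866 FPKM. Of 44 proteasome subunits 1 rose, Psma8, the subunit of the spermatocyte proteasome, from 15.4 to 122 FPKM, a ratio of 7.91 (7.04 to 8.93). The highest of the other subunits was Psma4, with 281 and 267 FPKM, and the median of 0.07 turns negative with both rescalings of the libraries.

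Gene families named for the testis were detected only in part, and a member can enter the genes tested through a high d16 level alone. Of 341 RIKEN clones of the series that includes 1700003M02Rik, taken from adult testis, 102 were tested, 71 rose and 2 fell, with a median of 1.73. Of 472 clones of another testis series, which includes 4933440M02Rik, 107 were tested, 60 rose and none fell, with a median of 1.30. In these series 102 and 171 clones were listed at 0 in both libraries. 1700020N18Rik, without a fragment at d12, had 25.9 FPKM (177 fragments) at d16. 4933440M02Rik rose from 1.1 to 58.3 FPKM. 1700112H15Rik fell from 2.16 (21 fragments) to 0.206 (2), and 1700092M07Rik from 2.31 (11 fragments) to 0.632 (3). The counting interval of the latter ratio, 0.0489 to 1.03, included 1. Of 28 Spata genes 12 were tested and 8 rose, with a median of 1.75, among them Spata33 from 13.6 to 173 FPKM. Of 29 Tex genes 17 were tested and 4 rose, with a median of 0.58, and Tex40 went furthest, from 0.204 to 18.8 FPKM.

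Long non-coding RNAs were called more often than protein-coding genes. Of 327 tested, 102 rose (31.2%) and 9 fell, beside 1022 risen and 120 fallen of 11090 protein-coding genes (9.22% risen). A non-coding RNA, too, can enter the genes tested through a high d16 level alone, as Gm21269 did with 0.110 and 25.3 FPKM. The share that rose is therefore in part set by the rule, and whether the classes differ beyond that was not tested. The following were chosen after their values were seen. Rbakdn rose from 0.305 to 56.4 FPKM, 4930444F02Rik from 0.653 to 45.5, and 1700008K24Rik from 2.47 to 91.4. H19, an imprinted RNA of fetal tissues, showed the largest fall of this class, from 46.5 FPKM (1330 fragments) to 12.5 (357), and was at 1.03 in adult testis.

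The X chromosome went the other way. Of 471 X-linked genes tested, 5 rose (1.06%) and 8 fell (1.70%), beside 10.3% and 1.16% of 11087 autosomal genes. Lower values at d16 were found for 429 X-linked genes (91.1%), and the median log2 change was -0.43 for the X chromosome and -0.01 for the autosomes, which ranged from -0.06 to 0.04. The share of risen genes was between 8.82% and 12.6% on the single autosomes, lowest on chromosome 16 and highest on chromosome 17. Among X-linked genes with recovered fragments the counting interval of the ratio lay below 1 for 286 of 375 (76.3%), beside 34.1% on the autosomes. In the share of risen genes, the median and the share of lower intervals the X chromosome lay outside the range of the single autosomes, while its share of fallen genes lay within it. X-linked genes tested made up 4.33% of the FPKM sum in the d12 library and 2.87% in the d16 library, and 1.09% and 0.868% in the d24 and adult libraries.

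The abundant X-linked transcripts, chosen after their values were seen, were lower at d16. Rpl36a, a ribosomal protein, had 766 FPKM at d12 and 449 at d16, Wbp5 343 and 221, and Rbm3, an RNA-binding protein, 269.6 and 164. None of these was called fallen. Tmsb4x, an actin-binding protein of many cell types, was less lowered, with 281 and 228 FPKM.

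All 13 X-linked genes with a call are given here, chosen by their calls. Those that rose were Tsx, a testis transcript from the X inactivation region (8.33 and 39.4 FPKM, ratio 4.73, 3.75 to 6.08), Gm9112 (24.5 and 77.2), Gm648 (1.54 and 6.54), Dmrtc1b (0.0674 and 2.57, on 1 and 39 fragments) and Trpc5os (0.557 and 3.04). Gm9112 and Dmrtc1b are neighbours at chrX:102706888-102715209 and share stretches with related genes. Those that fell were Bex2 (96.1 and 37.5 FPKM), Nrk, a kinase (28.1 and 11.2, falling by a factor of 2.52, 2.33 to 2.72), Rhox8, a homeobox gene of Sertoli cells (30.3 and 14.6), Armcx6 (6.4 and 2.6), Klhl13 (4.53 and 1.36), Fgf13 (4.42 and 1.15), Renbp (3.99 and 1.49) and Magea10 (2.37 and 0.615). Nrk, Bex2 and Rhox8 were lower again at d24, at 4.03, 12.2 and 6.08 FPKM.

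On the Y chromosome 9 of 11 genes tested were lower at d16, with a median of -0.48, and none was called. The genes were chosen after their values were seen. Ddx3y, an RNA helicase, had 31.9 and 21.6 FPKM, Eif2s3y, a translation factor needed in spermatogonia, 53.7 and 34.4, and Rbmy, a multicopy RNA-binding protein of germ cells, 115 and 80.1. The exceptions were the zinc finger genes Zfy1, with 6.34 and 7.15 FPKM, and Zfy2.

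**Figure D4:**
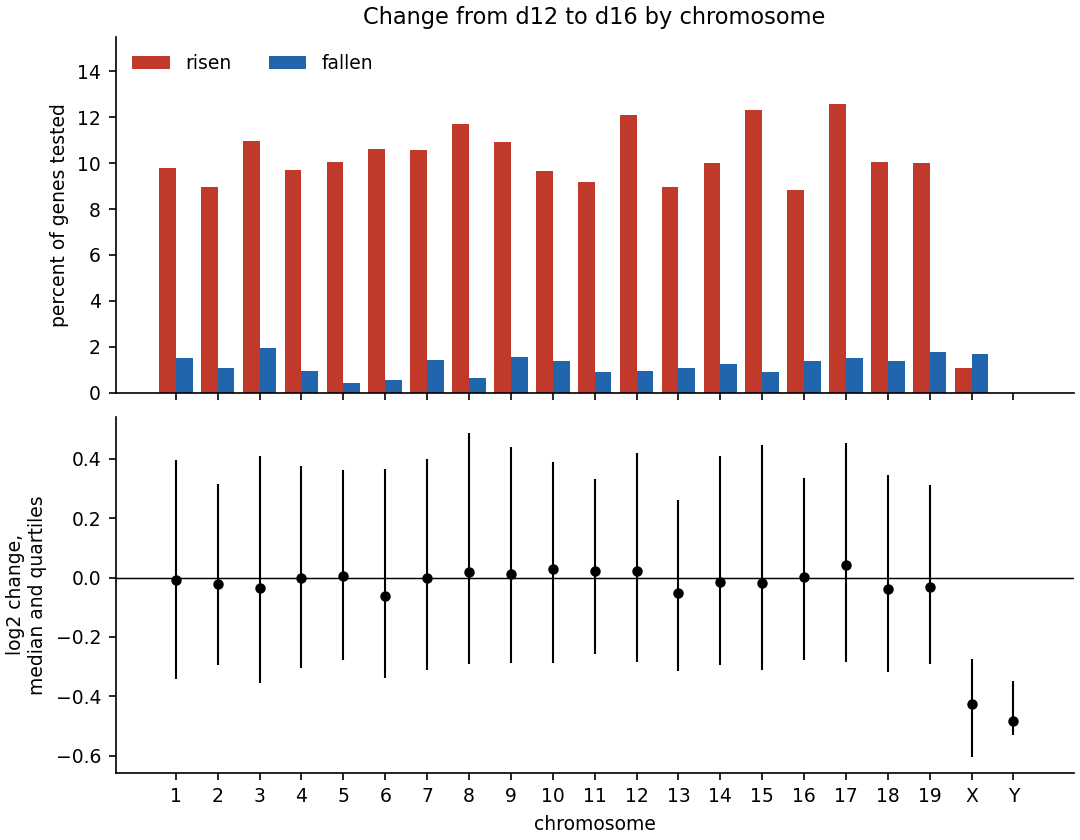
Upper plot, percent of the genes tested on each chromosome that rose (red bars) or fell (blue bars) from d12 to d16. Lower plot, median log2 change with bars from the lower to the upper quartile over genes. Every autosome has between 8.82% and 12.6% risen genes and a median near 0, the X chromosome has 1.06% and a median of -0.43, and the Y chromosome, with 11 genes, has none and a median of -0.48.

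Many X-linked housekeeping genes have an autosomal copy made by retrotransposition that is used in germ cells. In 15 such pairs, the X-linked parent was lower at d16 in 15 and the retrogene higher in 14, and 9 of the retrogenes rose. For comparison, 91.1% of all X-linked genes tested were lower at d16, so the count of parents is near that share. Of all autosomal genes tested, 10.3% rose. No parent was called fallen, although Utp14a, at 6.44 and 3.19 FPKM, was lower by a factor of 2.02 (1.57 to 2.6). The parents had a median log2 change of -0.69 and the 14 retrogenes tested one of 1.95.

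The largest rise of a retrogene was that of Cetn1, given above, whose X-linked parent Cetn2 had 25.4 FPKM at d12 and 13.4 at d16. Pdha2, the pyruvate dehydrogenase subunit of spermatocytes, rose from 7.67 to 63.7 FPKM, a ratio of 8.3 (7.23 to 9.57), beside Pdha1. Pgk2 rose from 0.401 to 4.77 FPKM and its parent Pgk1, a glycolytic kinase that shares 53.9% of its stretches with copies, had 18.6 and 14.2. Rpl10l rose from 35.7 to 158 FPKM while its parent Rpl10 had 135 and 92.1, so that the copy passed the parent between the stages. The same order was seen for Cox7b2 (38.1 and 237 FPKM) and Cox7b (61.7 and 32.8).

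Fam50b rose from 0.547 to 21.5 FPKM beside Fam50a (27.7 and 20.4), Timm8a2, of a mitochondrial import complex, from 5.41 to 25.1 beside Timm8a1 (24.6 and 13.1), and Naa11, an acetyltransferase subunit, from 1.28 to 7.35 beside Naa10 (7.64 and 3.99). Rpl39l rose from 11.4 to 31.3 FPKM and its parent Rpl39 had 466 and 285. In the remaining pairs the retrogene was not called or not detected. Zfa-ps had 5.25 and 9.85 FPKM, Rbmxl2 1.63 and 3.15, Cstf2t 14.6 and 20.5, and Rpl36al 109 and 127. Utp14b had 23.3 and 23.4 FPKM, and G6pd2 was listed at 0 in both.

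**Figure D5:**
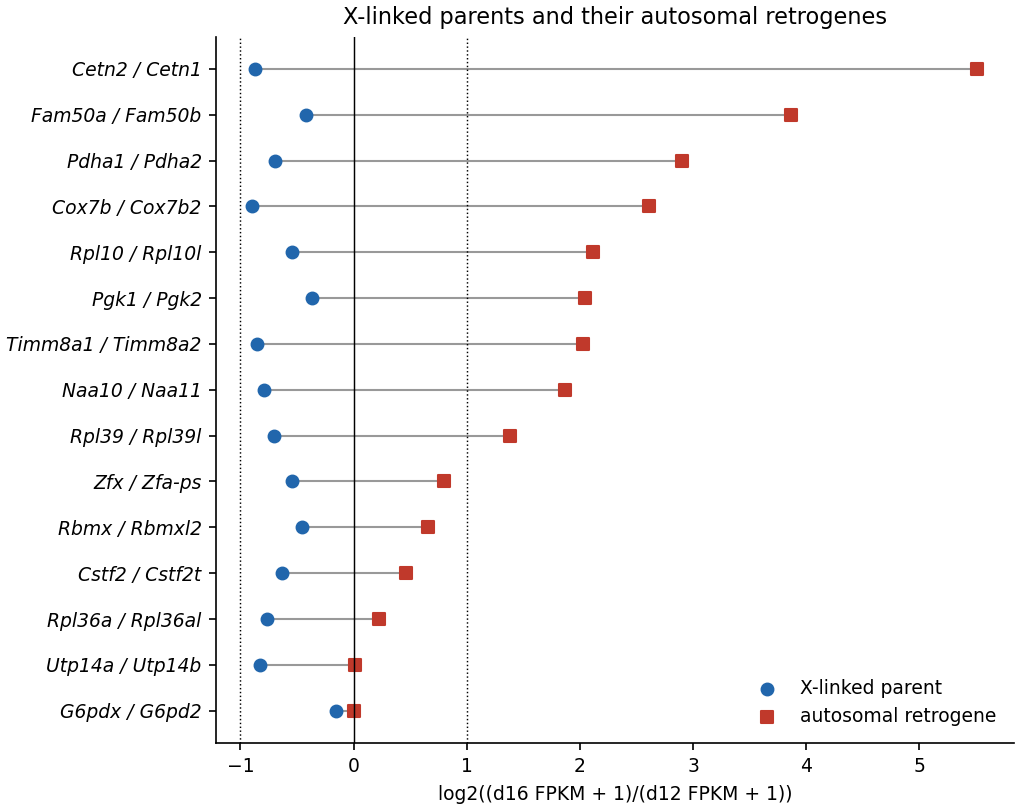
Log2 change from d12 to d16 of 15 X-linked genes (blue circles) and their autosomal retrogenes (red squares), joined by a line for each pair, with dotted lines at the limits of a call. All circles lie left of 0, and 9 squares lie right of 1, up to Cetn1 at 5.51. G6pd2 is drawn at 0 because it was listed at 0 in both libraries.

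The falls were headed by globins of red blood cells. Hba-a1 fell from 236 FPKM to 50.6, by a factor of 4.67 (4.15 to 5.24), Hbb-b1 from 36.9 to 0.768 and Hbb-b2 from 28.1 to 8.0. These genes have close copies, and 72.3% of the stretches of Hba-a1 are found in Hba-a2, which had 0.0701 and 0.0291 FPKM. No such share was available for Hbb-b1, so the size of its fall is uncertain. Of 8 erythroid genes, a list written after the values were seen, 5 were tested, 3 fell and all 5 were lower at d16. The smallest change of the 5 was that of a further globin gene, Hbb-bs, which had no call at a log2 change of -0.63. Alas2, the first enzyme of heme synthesis in red cells, had 3.07 and 1.5 FPKM, and the red cell anion exchanger Slc4a1 had 0.14 and 0.0352. The part of blood left in the tissue in these falls was not tested.

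Genes known from fat cells were also among the leading falls. Scd1, a fatty acid desaturase, fell from 13.8 to 2.96 FPKM and Fabp4, a fatty acid carrier of fat cells and vessels, from 48.5 to 13.7, by factors of 4.65 (3.95 to 5.49) and 3.53 (2.87 to 4.37). In a list of 12 fat cell genes, also written after the values were seen, 6 were tested, 4 fell and all 6 were lower at d16, with a median of -1.35. Car3 (6.27 and 1.67 FPKM) and Lpl (4.63 and 1.36) were the other two. Members left out as too low went both ways. The hormone Adipoq had 1.49 and 0.714 FPKM, the lipid droplet protein Plin1 1.97 and 1.38, and Cidec 0.563 and 0.282. Cfd had 1.56 and 1.64 FPKM and Lep 0.0245 and 0.0982, on 1 and 4 fragments. Whether fat beside the testis contributed to the d12 library was not tested.

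The other leading falls were of genes with varied functions. Ass1, an enzyme of arginine synthesis, fell from 8.33 to 1.27 FPKM, and Tnfrsf12a, a cytokine receptor, from 12.2 to 2.29. Dpt, a matrix protein of fibroblasts, fell from 13 to 2.54 FPKM, a factor of 5.13 (3.86 to 7.06). Sel1l3 (8.9 and 1.58 FPKM at d12 and d16), Pdlim4 (8.42 and 1.55), the glutamate transporter Slc1a6 (4.66 and 0.613) and Cadps, a factor of vesicle release (2.74 and 0.204), fell too. 5430417L22Rik went from 2.48 FPKM (95 fragments) to a value under that of 1 fragment.

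For 2 of the 15 largest falls the sum with the closest copy did not fall. Amd2 had 399 fragments at d12 and none at d16, but it shares 85.7% of its stretches with Amd1, and the sum of both was 44.8 FPKM at d12 and 61.4 at d16. Rps27 fell from 455 to 144 FPKM while its copy Rps27rt, named after its values were seen, rose from 33.4 to 370.5, and the sum of both was 488 and 514. Of the other genes named here, Mnd1 shares 40.8% of its stretches with other genes, Tubb2a 49.6%, Timm8a1 41.0%, Ass1 38.6%, Cmtm2a 37.6% and Rpl10 33.5%, and their values are uncertain for the same reason.

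Markers of Sertoli, Leydig, peritubular myoid and endothelial cells had median log2 changes below 0, while those of macrophages had one of 0.20. Most of these markers had no call, and 1.20% of all genes tested fell. Of 15 Sertoli cell markers, 12 were lower, 1 fell and 1 rose, with a median of -0.42 and a summed level of 2141 FPKM at d12 and 1713 at d16. Amh, the hormone of immature Sertoli cells, fell from 3.12 to 0.817 FPKM, a factor of 3.82 (2.28 to 7.15). Sox9 had 12.2 and 7.64 FPKM, Wt1 40.3 and 29.7, and the secreted protein Clu, the highest of the list, 707 and 609. The member that rose was Tsx, the X-linked gene above.

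Lists of Sertoli cell function gave similar medians. Of 23 regulators and hormones 2 fell, Amh and Rhox8, with a median of -0.59, and the transcription factor Dmrt1, also used by spermatogonia, had 77.4 and 48.9 FPKM. The highest of this list was the X-linked helicase Ddx3x, with 97.3 and 73.4 FPKM. Among 26 secreted and transport proteins none fell and the median was -0.42. Of 18 junction genes of the blood-testis barrier, which closes in this period, 1 fell and 1 rose, with a median of -0.37. Cxadr, a junction receptor, fell from 10.8 to 4.3 FPKM and Pvrl3, an adhesion protein found at the contacts of spermatids, rose from 11.8 to 31.8. Ctnnb1, the highest, had 153 and 130.3 FPKM.

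Growth factors and receptors around spermatogonia were the list with the lowest median among those with over 10 genes tested, apart from the X-linked parents. It was -0.64 over 14 genes, of which 13 were lower and 2 fell. Tgfb2 fell from 3.38 to 1.03 FPKM and Wnt5a from 5.12 to 2.01. Kitl, the ligand of Kit and the highest of the list, had 25.6 and 15.7 FPKM. Of 17 retinoic acid genes 2 rose, Rdh11 (5.94 and 22.1 FPKM) and Lrat (0.955 and 3.42), none fell, and the median was -0.44. Aldh1a1, the highest, had 364 and 318 FPKM. None of 14 DNA methylation genes rose or fell, 13 were lower, and Hells, a remodeller needed for methylation, had 144 and 101 FPKM.

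Leydig cells and their steroid pathway were uneven. Of 11 Leydig markers tested, 9 were lower, 2 fell and 1 rose. Star, which brings cholesterol into mitochondria, fell from 18.8 to 7.29 FPKM, a factor of 2.58 (2.29 to 2.92), and Hsd17b3, the last enzyme of testosterone synthesis, from 13.6 to 6.1. Hsd3b6, the adult form of the hydroxysteroid dehydrogenase, rose from 3.32 to 24.6 FPKM, a ratio of 7.41 (5.82 to 9.57), while Hsd3b1, the highest of the list, had 42.1 and 22.5. Cyp17a1 had 39.6 and 24.6 FPKM and Cyp11a1 11.3 and 11.1. Over 20 steroid genes, 3 fell and 1 rose, with a median of -0.41, and the other one to fall was the nuclear receptor Nr4a1, an early response gene, from 3.35 to 0.452 FPKM. None of 24 cholesterol synthesis genes rose or fell, with 22 lower and a median of -0.36.

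Other cells of the interstitium were lower without a call, apart from macrophages. All 11 markers of peritubular myoid cells were lower, with log2 changes from -0.63 to -0.11, and Myl9, the highest, had 129 and 103 FPKM. All 6 endothelial markers tested of 12 were lower, with a median of -0.38. Of 9 macrophage markers tested, 7 were higher at d16, with a median of 0.20. Fcgr3, an immunoglobulin receptor, rose from 2.71 to 12.5 FPKM, but Csf1r had 2.82 and 3.41 and Mrc1 15.2 and 14.4.

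Extracellular matrix genes were lower in 36 of 38 cases, with 3 falls and a median of -0.53. Postn, a matrix protein of growing tissue, fell from 14.4 to 4.24 FPKM, and the collagens Col5a2 and Col14a1 from 20.4 to 8.3 and from 10.7 to 4.58. Sparc, the highest of the list, had 346 and 269.7 FPKM. Imprinted growth genes, many of which shut down after birth, held the largest number of falls of any list. Of 24 tested, 6 fell, none rose and 22 were lower, with a median of -0.45. Besides H19 the largest falls were those of Zim1 (7.07 and 2.4 FPKM) and Plagl1 (7.27 and 2.63). Gnas, the highest, had 98.2 and 76.5 FPKM.

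Few genes of general cell upkeep were called. Of 76 cytoplasmic ribosomal proteins, 66 were lower, with a median of -0.18, and apart from Rps27 only Rpl26 was called, from 26.2 to 68 FPKM. In contrast, 57 of 77 mitochondrial ribosomal proteins were higher, with a median of 0.15 and 1 rise, that of Mrpl39 (36 and 77.9 FPKM), and complex I of the respiratory chain had a median of 0.27 over 36 genes, with Ndufc1 risen (17 and 48.3 FPKM). Of 20 genes of the Bcl2 family and cell death, 2 rose, Bad (4.86 and 11.2 FPKM) and Pmaip1 (2.38 and 6.0), both of which promote cell death, and the median was -0.38. Of 9 tested genes of the X-linked Rhox cluster 1 fell, Rhox8, with a median of -0.49. None of 52 keratins reached 2 FPKM in either library.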

How the data were processed

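The data were total RNA-seq of pieces of C57BL/6J mouse testis, 1 library per stage, of which d12 and d16 were compared and d24 and adult served as reference levels. The deposited values are FPKM, which the authors made with strand-specific, paired-end reads aligned to GRCm38/mm10. The submitters' processing notes name TopHat2 2.1.0, Bowtie 1.1.2 and Cufflinks 2.2.1. By the study's methods 1 alignment was kept per pair, and Cuffdiff corrected for multi-reads and bias but not for effective length. Reads of copies can thus be divided between genes, which affects single values. How libraries were scaled to each other is not given in the sources used here. The 1 step from d12 to d16 was taken as log2(FPKM + 1), and genes with at least 2 FPKM in either library were tested for a change of 2-fold or more on that scale.

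Transcript lengths came from RefSeq on GRCm38.p6. Of the gene names, 22567 matched by symbol and 1268 by synonym, and 148 did not match. Fragments were recovered for the 9145 tested genes of known length from the steps in low values, and 92.2% (d12) and 91.4% (d16) of the values used to find the step lay within 0.05 of a whole number. Shared stretches are 50-base words of a transcript found in other genes. Computation used Python 3.11.15, pandas 2.3.3, numpy 2.4.6 and scipy 1.17.1, and was tested on simulated data. With 1 library per stage no test between the stages was possible, and groups of genes were described without a test.

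Genes were named by rule: the 15 protein-coding genes with the largest rise and the 15 with the largest fall, in each of 57 lists up to 3 risen and 3 fallen members and the highest one, the retrogene pairs, the genes next to the threshold the defining markers of cell types and, for promoters, the 4 protein-coding genes with the largest rise whose window holds CNGTTA, chromosome 18 aside. Other genes named were chosen after their values were seen. The members and lists were chosen with earlier results of these data known, and the lists of erythroid and fat cell genes were written after the values were seen. Some genes that the rule would name are not reported here.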

Additional observations from a re-analysis of the deposited data

How the results depend on the processing

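With 1 library per stage, no replicate could be left out. No paired analysis was possible because each stage has 1 library. The number of genes that rose was 1994 at a limit of 1.5-fold and 505 at 4-fold, and between 875 and 1322 under the other alternatives. The number that fell was 1076 at 1.5-fold, 6 at 4-fold, 82 with a threshold of 5 FPKM, 348 with a pseudocount of 0.1 and 238 with equal upper quartiles. The median log2 change of all genes was 0.0022 with a threshold of 5 FPKM, where its sign changed, -0.13 with equal FPKM sums and -0.16 with equal upper quartiles. Of X-linked genes, 3 rose at 5 FPKM, 9 at 1.5-fold and 1 at 4-fold. The number of X-linked genes that fell was 4 at 5 FPKM, 25 with a pseudocount of 0.1, 16 with equal sums, 21 with equal upper quartiles, 127 at 1.5-fold and 0 at 4-fold. Their median log2 change was -0.40 at 1 FPKM, -0.49 with a pseudocount of 0.1, -0.53 with equal sums and -0.56 with equal upper quartiles. A stricter fold or FPKM limit lowers a count by construction, and the cause of the other shifts was not tested. The medians of the strand exchange and proteasome lists changed sign with both rescalings, and that of the kinesins when centred on the median. The number of function lists with a larger share of risen genes than all genes tested was 21, and between 16 and 21 under the alternatives. Differences between animals could not be measured at any depth.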
